A study of Caenorhabditis elegans with 2 samples.

Results

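The 71 genes described here encode aminoacyl-tRNA synthetases and translation factors of Caenorhabditis elegans. They were chosen by name among the 19973 nuclear protein-coding genes of the Ensembl annotation. A name of 1 letter followed by ars- and a number gave 32 synthetase genes, and names starting with eif-, eef-, ife-, ifg- or iff- gave 39 translation factor genes. The data are ChIP-seq regions precipitated with an anti-GFP antibody, and the members were asked about regions whose summit lies within 1 kb of the gene's 5' end.

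The study mapped binding of CEH-19, a homeodomain transcription factor known from pharyngeal motor neurons, in whole late embryos of mixed sex. The only group was strain OP739, in which the unc-119(tm4063) background carries the insertion wgIs739, a ceh-19::TY1::EGFP::3xFLAG fusion linked to an unc-119(+) rescue, and its embryos were taken at 5 hours after egg bleaching. It has 2 biological replicates, numbered 2 and 3 by the labels, and chromatin was sonicated to 200 to 800 bp. No precipitation from worms without the tag was analysed here, all embryos carried the same transgene, and the sequence that drives it is not given in the sources used here.

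Aminoacyl-tRNA synthetases join each amino acid to its tRNA, with separate enzymes for the cytosol and the mitochondria in most cases. Initiation factors then place the charged initiator tRNA and the small ribosomal subunit on an mRNA, and elongation factors deliver further aminoacyl-tRNAs and move the ribosome along. Protein synthesis is needed by essentially every cell of a growing embryo, but in which cells each member is expressed was not examined here.

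Sequences at 8 summits are shown because 4 of them lie in reproducible regions of the members (ears-2, iff-2, mars-1 and eif-3.D) and 4 in the member regions ranked next below that list (eef-1A.1, ife-4, eif-3.B and eef-1A.2), 3 of which carry the word GAGAG. The reproducible regions at eif-3.C and eif-3.E are not shown, and neither had GAGAG or TAAT within 50 bp of the summit. The sequences shown thus do not stand for all reproducible member regions. Each sequence is the 101 bp window centred on the authors' summit in the pooled list, read 5' to 3' on the strand of the gene. It is stopped before the gene's 5' end, which leaves 83 bp at ears-2. The letters are from the WBcel235 assembly, the same build as ce11. The windows on the minus strand were chrIV:390469-390551 (ears-2), chrII:8561395-8561495 (iff-2), chrIV:11635635-11635735 (mars-1), chrIII:8971764-8971864 (eif-3.D) and chrIII:6972084-6972184 (eef-1A.1). Those on the plus strand were chrX:1103830-1103930 (ife-4), chrII:14795116-14795216 (eif-3.B) and chrX:7823165-7823265 (eef-1A.2). Capitals mark GAGAG or its reverse complement CTCTC, overlapping copies included.
ears-2: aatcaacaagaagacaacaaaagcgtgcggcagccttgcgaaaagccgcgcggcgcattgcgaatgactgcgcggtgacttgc
iff-2: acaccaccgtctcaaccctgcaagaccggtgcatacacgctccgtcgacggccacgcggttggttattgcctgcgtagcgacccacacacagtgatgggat
mars-1: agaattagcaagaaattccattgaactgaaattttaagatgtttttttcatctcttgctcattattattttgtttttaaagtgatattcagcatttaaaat
eif-3.D: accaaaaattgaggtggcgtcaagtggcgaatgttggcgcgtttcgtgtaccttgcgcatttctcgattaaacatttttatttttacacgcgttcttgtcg
eef-1A.1: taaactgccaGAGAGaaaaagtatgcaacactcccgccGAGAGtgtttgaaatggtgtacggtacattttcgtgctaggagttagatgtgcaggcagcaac
ife-4: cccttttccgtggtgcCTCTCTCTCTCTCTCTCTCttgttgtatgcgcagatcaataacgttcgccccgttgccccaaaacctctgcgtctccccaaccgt
eif-3.B: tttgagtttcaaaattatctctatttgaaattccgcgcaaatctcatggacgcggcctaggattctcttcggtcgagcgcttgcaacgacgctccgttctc
eef-1A.2: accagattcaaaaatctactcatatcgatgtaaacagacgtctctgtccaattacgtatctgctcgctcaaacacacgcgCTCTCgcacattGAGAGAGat
The ears-2 and iff-2 windows are rich in G and C, with a GC share of 56.6% and 60.4%, and the mars-1 window is the poorest at 22.8%. The ife-4 window holds 20 bases of alternating C and T.

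Over the whole series, the authors deposited 4 lists of regions. The list that passed the irreproducible discovery rate threshold, called the reproducible list below, holds 1112 regions, 1091 of them nuclear. The pooled list and that of replicate 2 hold 30000 regions each and that of replicate 3 holds 29534, and these 3 lists contain background regions by design. Each region has a signal value from the authors' peak caller, with no unit or normalization stated, and a rank by that value within its list. The lowest signal in the reproducible list was 112.88, and the highest pooled signal outside it was 112.83. By signal, the list is thus the 1112 strongest regions of the pooled list. A region in it need not be among the 1112 strongest of each replicate. Sequencing depth is unknown, since the lists carry no read numbers.

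A reproducible region lay within 1 kb of 6 of the 71 members, namely ears-2, eif-3.C, iff-2, eif-3.E, mars-1 and eif-3.D. That is a share of 8.45% (exact 95% interval 3.16 to 17.5%), beside 3.29% of all nuclear protein-coding genes. The synthetases held 2 of the 6 regions (6.25% of 32, interval 0.766 to 20.8%) and the translation factors 4 (10.3% of 39, interval 2.87 to 24.2%). All 6 summits lay upstream of the gene, at 33 to 238 bp from the 5' end and in sequence annotated as intergenic. Over all genes with a reproducible region, 43.7% of the summits lay in the 300 bp upstream and 13.2% lay downstream of the 5' end. The intervals cover counting error over genes and not the spread over further cultures. With 1 group and no precipitation from untagged worms analysed here, no test between conditions was possible. The authors' peak calls used 1 control file.

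The pooled list had a region within 1 kb of 55 members (77.5%, interval 66.0 to 86.5%), beside 46.9% of all protein-coding genes. This count was 24 of 32 among the synthetases and 31 of 39 among the translation factors. The strongest pooled region of a member had a median signal of 55.3, against 46.9 over all genes with a region, and a median rank of 7480 against 11568. The median summit lay 227 bp upstream of the members' 5' ends and 111 bp upstream over all genes. Summits in the 300 bp upstream made up 49.1% at the members and 26.3% over all genes, and summits downstream of the 5' end made up 18.2% and 40.8%. At a pooled rank of up to 2224, which is 2 times the length of the reproducible list and was chosen after the values were seen, 16 members had a region (22.5%), beside 6.18% of all genes.

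**Figure D1:**
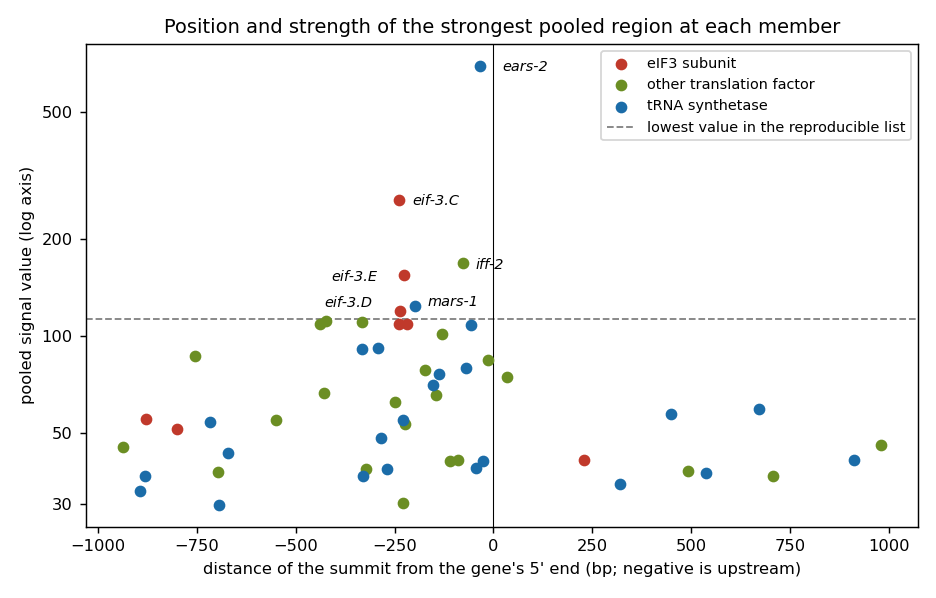
Strongest pooled region at each of the 55 members that have one: distance of the summit from the 5' end in bp (x axis, negative upstream) and pooled signal value (y axis, log scale, no unit stated). Points are coloured by eIF3 subunits, other translation factors and synthetases, and the dashed line is the lowest signal in the reproducible list, 113. The 6 points above the line lie 33 to 238 bp upstream.

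Of all members, ears-2 (T07A9.2) had the strongest region. Its RefSeq product is the mitochondrial glutamyl-tRNA synthetase EARS2, which charges tRNA with glutamate inside the organelle. The region, chrIV:390351-390645, had a signal of 219 in replicate 2 and 471 in replicate 3, ranks 30 and 11 of their lists, and 693 in the pooled list, rank 16. The summits lay 22 and 33 bp upstream of ears-2 in replicates 2 and 3. The gene uncp-18 starts on the other strand, 92 bp separate the 5' ends, and the pooled summit was 59 bp from that of uncp-18, so the region cannot be given to 1 of the genes by position.

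The other synthetase with a reproducible region was mars-1 (F58B3.5), which encodes the cytosolic methionyl-tRNA synthetase. Its region, chrIV:11635467-11635902, had a signal of 39.7 in replicate 2 (rank 2595), 76.3 in replicate 3 (rank 917) and 124 in the pooled list (rank 884). Replicate 3 was 1.92 times as high as replicate 2, and the region was among the 1112 strongest in replicate 3 and not in replicate 2. Its summit lay 198 bp upstream of mars-1 and 963 bp from F58B3.6.

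The class of a synthetase was read from its RefSeq product name, which says cytoplasmic for 10 genes, mitochondrial for 4 and neither for 18. The reproducible list had a region at 1 of the 10 cytosolic enzymes (interval 0.253 to 44.5%) and 1 of the 4 mitochondrial ones (interval 0.631 to 80.6%). It had one at 0 of the 18 of unstated class (interval 0.0 to 18.5%). The pooled list had a region at all 10 cytosolic enzymes, all 4 mitochondrial ones and 10 of the 18 others. The intervals of the reproducible shares overlap widely, and the classes cannot be told apart at this number of genes.

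Sorted by the number in the name, the pooled list had a region at 18 of the 20 synthetases numbered 1 (90.0%, interval 68.3 to 98.8%) and at 5 of the 11 numbered 2 (45.5%, interval 16.7 to 76.6%). The number does not always give the compartment, since aars-2 is the cytosolic and aars-1 the mitochondrial alanine enzyme by product name. The second share is near the 46.9% of all protein-coding genes. In replicate 3 the counts were 17 of 20 (85.0%) and 5 of 11 (45.5%), beside 48.3% of all genes, and in replicate 2 they were 16 of 20 (80.0%) and 9 of 11 (81.8%), beside 45.1%. The difference was not tested, and it rests on weak regions that include background.

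Below the reproducible list, the strongest synthetase regions lay at yars-2, nars-1, kars-1, fars-3 and aars-1. The tyrosine enzyme gene yars-2 had 37.9 in replicate 2, 71.6 in replicate 3 and 108 in the pooled list, at 58 bp upstream. The cytosolic asparagine enzyme gene nars-1 had 27.5, 50.5 and 92.1 in the same order, at 291 bp upstream. Both were higher in replicate 3. The lysine enzyme gene kars-1 had 51.7, 38.4 and 91.3, at 333 bp upstream, and was among the 1112 strongest regions of replicate 2 alone. The beta subunit of the phenylalanine enzyme, fars-3, had 40.7, 37.4 and 79.8, at 70 bp upstream. The mitochondrial alanine enzyme gene aars-1 had 26.3, 45.5 and 76.0, but its strongest summits in the replicates were 323 bp apart. The order of these genes thus depends on the replicate.

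Eukaryotic initiation factor 3 (eIF3) is the many-subunit complex that binds the small ribosomal subunit and joins it to the mRNA. Its genes held 3 of the 6 reproducible regions. This is 27.3% of the 11 eIF3 genes (interval 6.02 to 61.0%), beside 3.29% of all protein-coding genes. The scaffold subunit gene eif-3.C (T23D8.4) had a signal of 100.2 in replicate 2, 163 in replicate 3 and 265 in the pooled list, at ranks 178, 134 and 137. The core subunit gene eif-3.E (B0511.10) had 62.5, 79.4 and 155, at ranks 639, 844 and 543. Both were among the 1112 strongest regions of each replicate. The gene eif-3.D (R08D7.3), whose human counterpart can bind the mRNA cap, had 49.5, 66.2 and 119.7, at ranks 1239, 1335 and 964, so it was outside the 1112 strongest in each replicate alone. Its summit lay 78 bp from the 5' end of R08D7.4 and 236 bp from that of eif-3.D, so the nearest gene to it was R08D7.4. The eif-3.E summit lay 521 bp from B0511.17, and no other protein-coding gene started within 1 kb of that at eif-3.C.

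Just under the reproducible list came eif-3.B, a scaffold subunit gene, with 38.5 in replicate 2, 78.2 in replicate 3 and 109 in the pooled list. The gene of the WD-repeat subunit, eif-3.I, had 41.9, 60.5 and 109. In all 5 of these eIF3 genes replicate 3 was the higher one, as it was at 1839 of the 2371 genes with matched summits. Their pooled summits lay at similar places, 238 bp upstream for eif-3.B and eif-3.C, 236 bp for eif-3.D, 227 bp for eif-3.E and 219 bp for eif-3.I. The summits of the single replicates ranged from 203 to 248 bp upstream in replicate 2 and from 209 to 237 bp in replicate 3.

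Between 200 and 250 bp upstream, a band chosen after these positions were seen, lay 5 of the 8 pooled summits of eIF3 genes, 9 of the 55 of all members (16.4%) and 442 of the 9366 of all genes (4.72%). The same band held 72 of the 657 genes with a reproducible region (11.0%). The other eIF3 genes had weaker regions elsewhere. The pooled summit lay 879 bp upstream at eif-3.J (signal 55.3), 799 bp upstream at eif-3.H (51.4) and 229 bp downstream at eif-3.F (41.1). For eif-3.G and eif-3.K a region was listed in replicate 2 alone, and eif-3.L had none in any list.

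Factor eIF5A binds the ribosome and helps peptide bonds form at stalling sequences, and iff-2 (F54C9.1) is 1 of its 2 genes. The iff-2 region, chrII:8561227-8561662, had 72.7 in replicate 2, 105 in replicate 3 and 169 in the pooled list, at the close ranks 410, 414 and 416. Its pooled summit lay 78 bp upstream. The other gene, iff-1, had 17.7 in replicate 2, no region in replicate 3 and 38.6 in the pooled list, with a summit in a coding exon of the neighbour cdk-1. The pair therefore stood far apart in signal, 169 against 38.6.

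None of the 6 elongation factor genes had a reproducible region (0 of 6, which allows a share of up to 50%), and all 6 had a pooled one. The genes of eEF1A, the factor that brings aminoacyl-tRNA to the ribosome, were the highest of them. At eef-1A.1 the signal was 47.0 in replicate 2, 63.5 in replicate 3 and 111 in the pooled list (rank 1178), the first member under the reproducible list, where eif-3.D at 119.7 was the last inside it. At eef-1A.2 it was 58.2, 60.2 and 109 (rank 1225), with the summits of the replicates 107 bp apart. Each of the pooled summits at these genes had an annotated small RNA within 200 bp, the microRNA cel-mir-5549 at eef-1A.1 and the noncoding RNA R03G5.8 at eef-1A.2. What these small RNA genes and rfc-4 add to the signal was not tested. The eEF1 gamma gene eef-1G had 28.6, 57.5 and 84.2, with the pooled summit 14 bp upstream.

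Among the cap-binding and eIF4 genes, 0 of 7 had a reproducible region (up to 42.9%) and 5 had a pooled one. The strongest was ife-4, an eIF4E gene whose product binds the mRNA cap, with 39.7 in replicate 2, 73.1 in replicate 3 and 111 in the pooled list (rank 1180), 332 bp upstream. Its relative ife-3 had no region in the pooled list or replicate 2 but 70.6 in replicate 3 (rank 1130), 930 bp upstream.

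Neither the 3 genes of eIF2, which carries the initiator tRNA, nor the 5 of eIF2B, its exchange factor, had a reproducible region. The upper limits of the exact 95% intervals were 70.8% and 52.2%. Counts in the pooled list were 3 of 3 and 3 of 5. The eIF2 beta subunit gene eif-2beta had 21.4 in replicate 2 (rank 16423), 82.0 in replicate 3 (rank 782) and 102 in the pooled list. This was the widest gap between the replicates among members with matched summits, and the noncoding RNA gene K04G2.15 lay within 200 bp. The eIF2B gamma subunit gene eif-2Bgamma had 39.5, 46.2 and 86.6, with summits of the replicates 208 bp apart and its pooled summit 754 bp upstream in an intron of C15F1.5. Of the other 5 initiation factor genes, 0 had a reproducible and 4 a pooled region, the strongest at eif-2D with 42.0, 35.1 and 78.4.

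**Figure D2:**
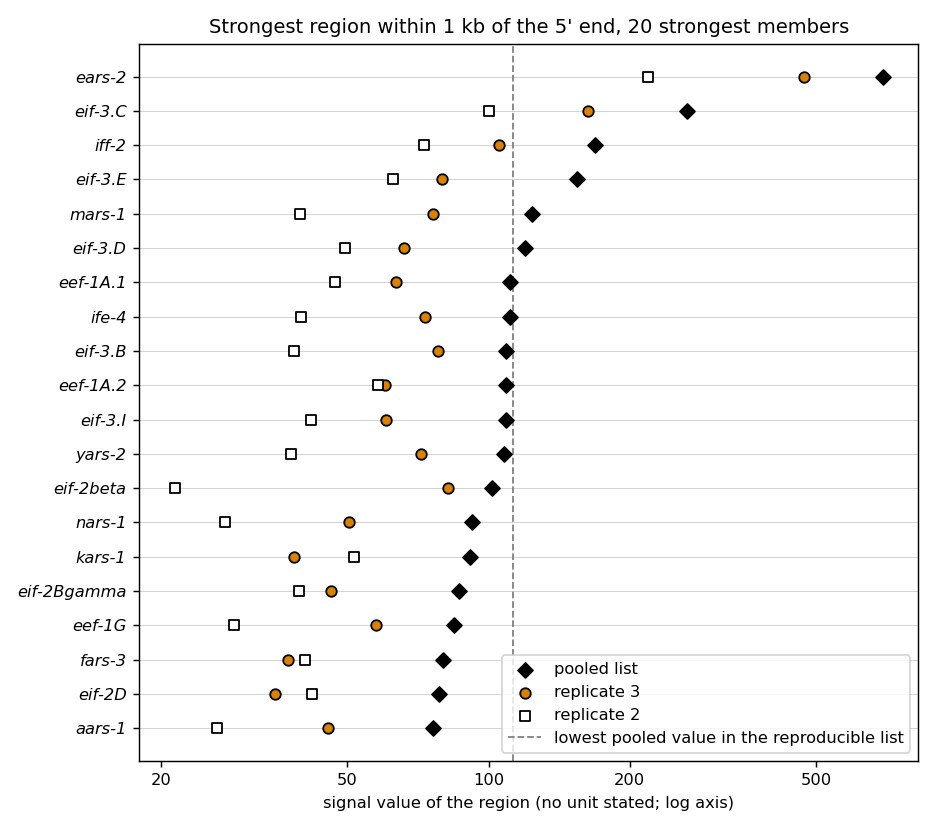
Signal value (x axis, log scale, no unit stated) of the strongest region within 1 kb at the 20 members with the strongest pooled region. Diamonds are the pooled list, circles replicate 3 and squares replicate 2, and the dashed line is the lowest pooled value in the reproducible list, 113. Replicate 2 is above replicate 3 at kars-1, fars-3 and eif-2D, and the pooled values of the 6 members between eef-1A.1 and yars-2 lie within 108 to 111.

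**Figure D3:**
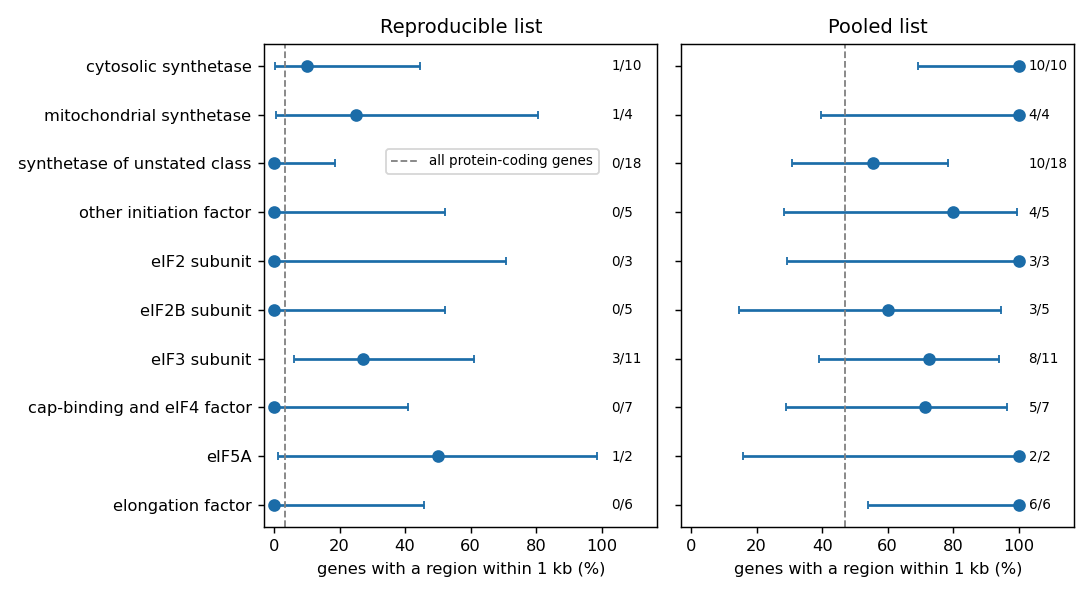
Percent of the genes of each role (rows) with a region within 1 kb in the reproducible list (left) and the pooled list (right). Points are the shares, bars the exact 95% intervals, the counts stand at the right, and dashed lines mark all protein-coding genes, 3.29% and 46.9%. Intervals are wide in every role, and eIF3 has 3 of 11 and 8 of 11.

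In replicate 2, 59 members had a region within 1 kb (83.1%, beside 45.1% of all genes), and in replicate 3, 49 did (69.0%, beside 48.3%). Both replicates had one at 43 members, replicate 2 alone at 16, replicate 3 alone at 6 and neither at 6. The last 6 were eif-2Balpha, eif-2Bdelta, eif-3.L, ife-1, lars-2 and yars-1. The strongest summits of the replicates were within 100 bp of each other at 24 of the 43 members (55.8%), against 39.6% of the 5981 genes with a region in both. At the other 19 members the summits lay farther apart. The regions of the replicates overlapped at 6 of these, eef-1A.2, eif-2Bgamma, aars-1, eif-3.H, hars-1 and lars-1, and did not at 13.

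At the 24 matched members the median log2 ratio of replicate 3 to replicate 2 was 0.53 (SD 0.58, range -0.43 to 1.94), with 17 higher in replicate 3. Over all matched genes the median was 0.42 (SD 0.56), which is within the spread of the members. The highest ratios were at eif-2beta (1.94), ears-2 (1.11) and eif-3.J (1.09), and the lowest at kars-1 (-0.43), eif-2D (-0.26) and eif-4A3 (-0.16). The signal has no stated normalization, and a ratio of unequal library depths cannot be told apart from a ratio of binding.

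Taking the 1112 strongest regions of each replicate in place of the reproducible list, 6 members had a region in replicate 2 (8.45%, beside 3.09% of all genes) and 9 in replicate 3 (12.7%, beside 3.25%). Only ears-2, eif-3.C, eif-3.E and iff-2 were in both (5.63%, beside 2.01%). Replicate 2 added eef-1A.2 and kars-1, and replicate 3 added eif-2beta, eif-3.B, ife-4, mars-1 and yars-2.

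**Figure D4:**
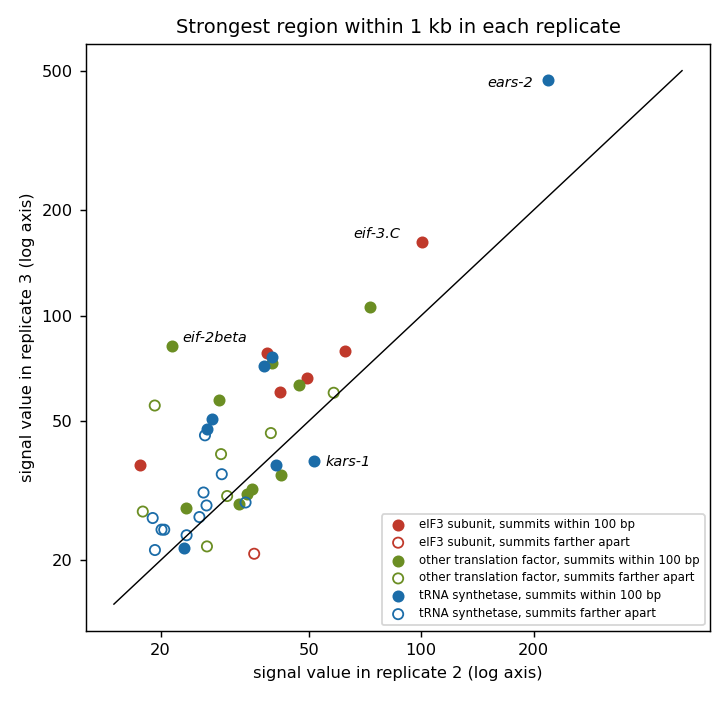
Signal value of the strongest region within 1 kb in replicate 2 (x axis) and replicate 3 (y axis), both on log scales with no unit stated, for the 43 members with a region in both. Filled points have summits within 100 bp and open points farther apart, and the line marks equal values. Of the filled points 17 of 24 lie above the line, with eif-2beta farthest above it and kars-1 farthest below.

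None of the 6 reproducible regions at members had a tRNA, snoRNA, snRNA, miRNA or other noncoding RNA gene within 200 bp of the summit, nor within 500 bp. Of all nuclear reproducible regions, 39.9% (435 of 1091) had one within 200 bp, with tRNA genes at 15.4% and snoRNA genes at 4.95%. A count of 0 of 6 allows a share of up to 50%, which covers the 39.9%. Only 516 of the reproducible regions lay within 1 kb of a protein-coding gene, as all member regions do by choice, so the 2 sets are not alike. In the pooled list 6 of the 55 member regions had one within 200 bp, and 0 had a tRNA or snoRNA gene. The 6 were at eef-1A.1, eef-1A.2, eif-2beta, eif-2Bgamma, qars-1 and eef-1B.1. The share over all pooled regions was not taken, so this count has no reference, and the 39.9% is from another list.

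The words searched at summits were GAGAG with its reverse complement CTCTC, and TAAT with its reverse complement ATTA, the core bound by many homeodomains. Within 50 bp of the summit, GAGAG was at 0 of the 6 reproducible member regions and 42.1% of all nuclear reproducible regions. It was at 17.1% of windows of the same width just upstream of all 5' ends. A count of 0 of 6 allows a share of up to 50%, which covers both shares. In the pooled list GAGAG was at 9 of 55 member regions (16.4%) and 22.2% over all genes. TAAT was at 2 of the 6, mars-1 and eif-3.D, at 33.0% of all nuclear reproducible regions and at 69.9% of the upstream windows. Within 100 bp of the summit it was at 5 of the 6 and at 56.7% of all nuclear reproducible regions. In flank windows of that width, centred 300 bp from the summit, it was at 6 of the 6 and at 83.2%. In flank windows of 101 bp it was at 5 of the 6 and at 61.8%, so TAAT was no commoner at the summits than beside them. In the pooled list it was within 50 bp at 31 of 55 member summits (56.4%) and 51.1% over all genes. The longer words TAATTA and TAATTG, a subset of the TAAT matches, were at 0 of the 6 and at 4.86% and 14.7%. The median GC share at the 6 summits was 51.0% (22.8 to 60.4%), against 50.5% for all nuclear reproducible regions and 31.7% for the upstream windows. A missing word says only that these letters are not in the window.

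Another protein-coding gene started within 1 kb of 5 of the 6 summits. Taking the strongest reproducible region of every gene that has one, the share was 48.6% (319 of 657 genes). In the pooled list it was 50.9% at the members (28 of 55) and 29.8% over all genes counted the same way (2787 of 9366). By annotation, 30 of the 55 pooled member summits were intergenic, 12 in a coding exon, 5 in an intron, 4 in a 5' UTR and 4 in a 3' UTR, several of them in a neighbour's gene.

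Of 35 other genes of the pathway, taken from a list of release, recycling, poly(A)-binding, mitochondrial translation, signalling, tRNA processing and RNA polymerase III genes, 33 were found by name. A reproducible region lay within 1 kb of 4 (12.1%, beside 3.29% of all genes) and a pooled one of 21 (63.6%, beside 46.9%). The release factor gene erfa-3 had 106 in replicate 2, 112 in replicate 3 and 226 in the pooled list, 255 bp upstream. The ribosome-associated ATPase gene abcf-2 had 75.6, 60.6 and 143, at 896 bp upstream. The poly(A)-binding protein gene pab-2 had 48.3, 69.3 and 118, at 138 bp upstream. For elpc-4, a subunit gene of the Elongator complex that modifies tRNAs, the values were 42.1, 135 and 190.0, at 992 bp upstream, the edge of the window. Groups with 0 reproducible regions were mitochondrial translation (4 genes), signalling to translation (7) and RNA polymerase III (5).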

How the data were processed

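ChIP-seq regions of 1 group with 2 biological replicates were analysed. Per the text files deposited with them, the authors called peaks and background regions on ce11 in each library and in both pooled, with 1 control file, and derived the reproducible list by the irreproducible discovery rate. Neither the caller, its version nor the threshold is given in the sources used here. Regions were ranked, and replicates set side by side, by the signal value that the authors deposited. The deposited −log10 q-value was used in no test. Depth is unknown.

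All 1112 reproducible regions were checked to be in the pooled list. Summits are the authors' positions. Genes came from Ensembl release 115 (WBcel235, same chromosome lengths as the files' build), products and synthetase classes from RefSeq. A region counted when its summit lay within 1 kb of the gene's 5' end, and the strongest was kept. Summits of the replicates matched within 100 bp. Intervals are exact (Clopper-Pearson) at 95%, and the limit for a count of 0 given without an exact interval is 3 counts. The counting was tested on simulated positions.

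The members and lists were chosen with earlier results of these data known. Named are members with a reproducible region, the 20 with the strongest pooled region, the strongest of each role, the 3 highest and lowest replicate ratios, pathway genes with a reproducible region, and a few more named after their values were seen. Alternatives were window, transcript, nearest gene, list length, small RNA neighbours, word window and each replicate alone. Mitochondrial DNA was left out of gene and word counts. Python 3.11.15, numpy 2.4.6, pandas 2.3.3, scipy 1.17.1 and matplotlib 3.10.9 were used.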

Additional observations from a re-analysis of the deposited data

How the results depend on the processing

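Of 59 alternatives, 52 left a count within 1.5 times its reported value or a median within 1 SD of it. The number of members with a reproducible region was 6, and the counts that stood in for it ranged from 4 to 9. It was 4 in the stronger part of the list, split at its middle rank, 5 where only the nearest gene counted (without eif-3.D), and 7 within 2 kb (with fars-1) or from any transcript's 5' end (with eif-3.I). Leaving out 1 replicate gave 6 to 9, of which 4 and 5 were shared with the 6. The synthetase count of 2 became 1 in the stronger part of the list. Members among the strongest regions of both replicates rose from 4 to 8 with 2 times as many regions taken. The share of all genes was not taken at that cut, and a longer list can raise the count of any genes. With 1 replicate alone the values were 0 to 1 for member regions near a small RNA gene, 0 to 1 for those with GAGAG and 0 to 1 for cytosolic synthetases. In the pooled list the cytosolic count was 10 and the mitochondrial 4, a list that holds background. No paired analysis was possible because there is 1 group. The unknown depth, and the absence of an untagged precipitation from this comparison, limit every count.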

Other observations

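By chromosome, the members with a pooled region were 16 of 21 on I, 15 of 17 on II, 9 of 12 on III, 9 of 10 on IV, 3 of 8 on V and 3 of 3 on X. Over all protein-coding genes the shares with a pooled region were 58.2% on I, 48.2% on II, 59.0% on III, 42.5% on IV, 34.9% on V and 48.7% on X, so V was the lowest chromosome there as well. Neither V nor X had a member with a reproducible region, beside 1.84% of all protein-coding genes on V and 4.32% on X. With only 8 members on V and 3 on X, this absence does not set the members apart from all genes.

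A gene ending on the same strand within 500 bp upstream, an arrangement seen in operons, was present for 18 members, and this gap was chosen after the values were seen. Of these, 13 had a pooled region (72.2%) and 1 a reproducible one. Of the other 53 members, 42 had a pooled region (79.2%) and 5 a reproducible one. Over all genes the pooled shares were 45.9% and 47.1%, and the reproducible shares 1.77% and 3.62%. The difference was not tested.

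Of the 16 members without a pooled region, 7 had a region in replicate 2 alone, 3 in replicate 3 alone and 6 in neither.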
